A study of Caenorhabditis elegans with 15 samples.

Results

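The small heat shock proteins of Caenorhabditis elegans are short chaperones that share the alpha-crystallin domain. A list of 10 genes was followed on arrays of worms kept in river sediment: hsp-12.1 (T22A3.2), hsp-12.2 (C14B9.1), hsp-12.3 (F38E11.1), hsp-12.6 (F38E11.2), hsp-16.1 (T27E4.8), hsp-16.2 (Y46H3A.3), hsp-16.41 (Y46H3A.2), hsp-16.48 (T27E4.3), sip-1 (F43D9.4) and hsp-43 (C14F11.5). The genes were found by their sequence names among the probe names of the array, without a final isoform letter. A probe was present for 9 of the 10 genes, out of 18542 genes named on the array; hsp-16.48 was not found by its sequence name and was not analysed here.

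Whole worms of the wild-type strain N2 (Bristol), at the L4 and young adult stages when exposure began, were kept for 48 h in sediment of the Danube, the Elbe or the Rhine together with E. coli as food. According to the study's chemical analysis, contamination was low in the Danube sediment, medium in the Rhine sediment and high in the Elbe sediment, and Danube sediment served as the reference sediment. Each sediment had 5 biological replicates, each taken from 24 vials with 0.5 g of sediment and 20000 worms, and each was hybridised to 1 two-colour array. The sediment sample carried Cy5, and Cy3 marked a reference made by pooling RNA from all sediment exposures and a laboratory control, so the log2 ratio of Cy5 to Cy3 gives a gene's level relative to that pool. All groups compared here were in sediment; worms without sediment contribute only to the pool. Because RNA came from whole worms, fewer cells of a type and less RNA per cell cannot be told apart.

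Small heat shock proteins bind proteins that begin to unfold, without using ATP, and hold them in a state from which other chaperones can refold them. In C. elegans the hsp-16 genes are silent or low at normal temperature and are strongly induced by heat and several toxicants through the transcription factor HSF-1. The hsp-12 proteins have very short ends around the domain and are not induced by heat; hsp-12.6 is a known target of DAF-16, the transcription factor of the insulin pathway. Sip-1 is known from oocytes and embryos, and hsp-43 is made without stress.

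By the RefSeq annotation of the assembly WBcel235, used here for names and neighbours only, several members are neighbours. On chromosome V, hsp-16.2 lay next to hsp-16.41 and hsp-16.1 next to hsp-16.48, which in turn was followed by hsp-16.49. On chromosome IV, hsp-12.3 lay next to hsp-12.6. The others were alone among the members: hsp-12.1 on chromosome I, hsp-12.2 and sip-1 on chromosome III, and hsp-43 on chromosome X. The probe named for hsp-16.1 may also bind RNA of hsp-16.11, a near-identical copy in the same cluster, and the measured values cannot separate the pair.

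The 15 arrays had similar brightness, with medians per array of 1322 to 1984 intensity units in Cy5 and 686.8 to 1586 in Cy3. Between 45.67% and 61.63% of gene spots on an array had the lowest confidence grade given by the image software. Danube replicates 1 to 4 had slide numbers in a lower series, and Danube 5 and all Elbe and Rhine arrays in a higher one. These are called the earlier and the later slide series after the order of their numbers, not after a date of hybridisation. A difference from Danube and a difference between the slide series can therefore be separated only through Danube 5, and within the later series the Elbe and Rhine arrays lay in separate runs of slides. The spread of log2 ratios was widest on Rhine 1 and Rhine 5, with SDs of 1.59 and 1.34.

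The spots of the members differed in quality. The probes of sip-1 and hsp-12.6 were above the lowest grade on all 15 arrays, and those of hsp-12.1 and hsp-12.3 on 14. The hsp-16.1 and hsp-16.2 probes reached this on 11 arrays, hsp-43 on 8, hsp-16.41 on 7 and hsp-12.2 on 6. To enter the test, a probe needed a better grade than the lowest in no fewer than 3 of 5 arrays for every sediment, which 5 of the 9 had: hsp-12.1, hsp-12.3, hsp-12.6, hsp-16.1 and sip-1. For the other 4 genes values are given from the same fit over all 19084 probes, and rest partly on weak spots. Hsp-16.1 had a pair of spots on each array, and an array was counted if either spot was above the lowest grade. Both spots were averaged, so the hsp-16.1 values also rest partly on weak spots. On every Elbe array the average included a spot of the lowest grade.

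No member passed the test in any of the 3 comparisons (limma, Benjamini-Hochberg adjusted p under 0.05). Over all 5347 probes tested the calls were 0.0187% for Elbe against Danube, 0% for Rhine against Danube and 0% for Elbe against Rhine, which is 1, 0 and 0 probes. Unadjusted p-values under 0.05 were found for 338, 689 and 571 probes in that order. The lowest adjusted p of a member was 0.477 for Elbe against Danube, 0.338 for Rhine against Danube and 0.424 for Elbe against Rhine.

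**Figure D1:**
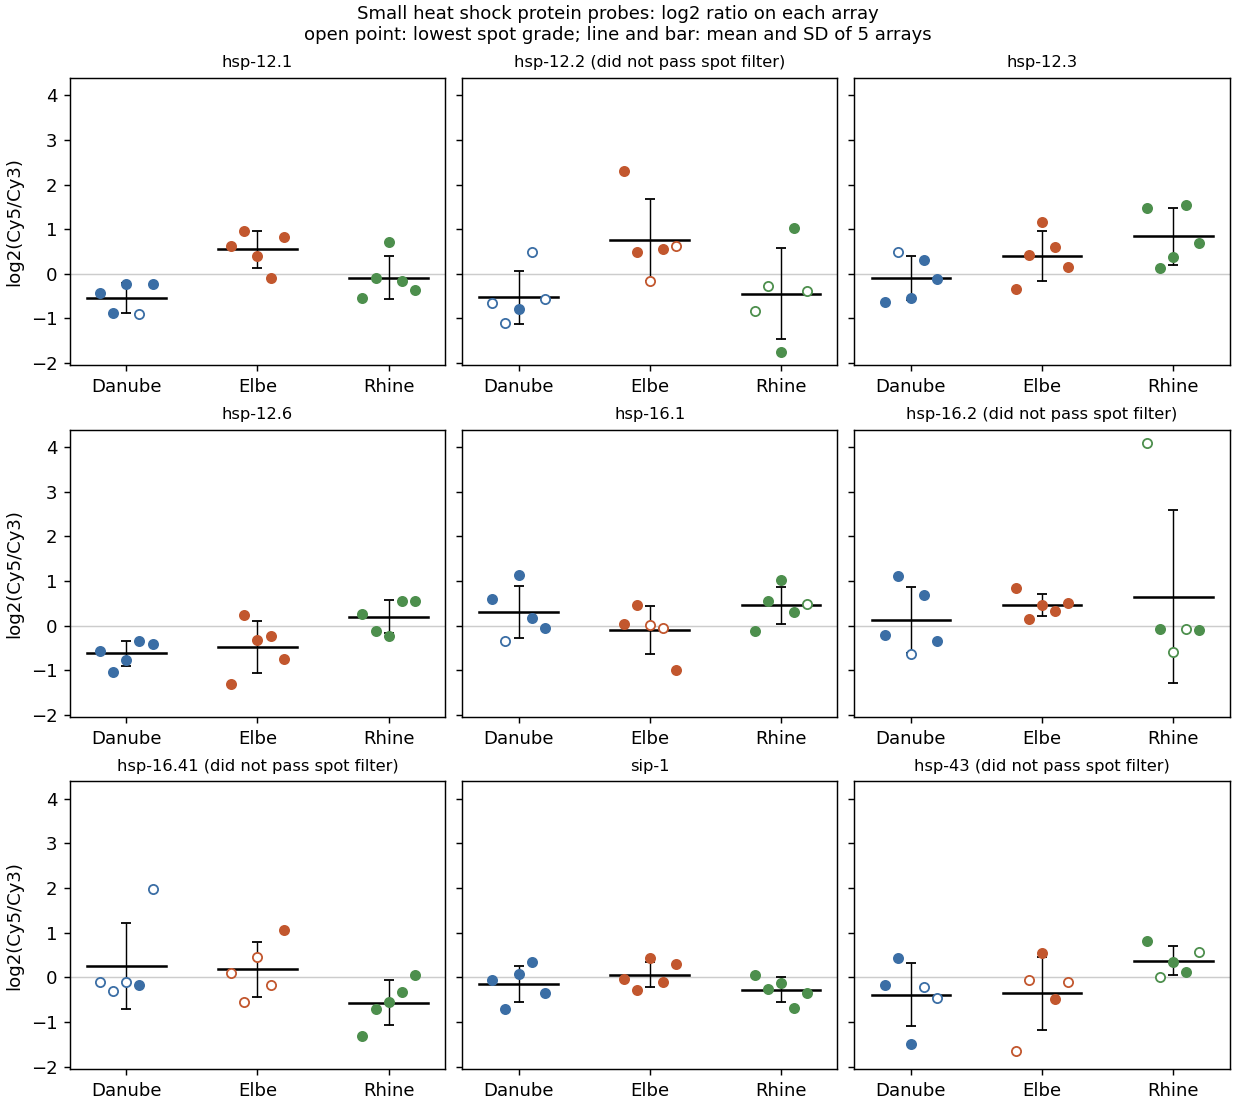
Log2 ratio of Cy5 to Cy3 (vertical axis) for the 9 measured small heat shock protein genes on the 5 arrays of each sediment. Filled points are spots above the lowest grade and open points are not, and an hsp-16.1 point is filled if either of its spots was. Lines and bars give the mean and SD. In hsp-12.1 all Elbe points lie above all Danube points, and in hsp-16.2 the Rhine 1 point at 4.1 stands far from the others.

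The clearest separations were in the hsp-12 group. The hsp-12.1 ratio was higher in Elbe than in Danube sediment on every array, and the hsp-12.6 ratio was higher in Rhine than in Danube sediment on every array. These were the only members whose groups did not overlap. Non-overlap was seen for 1.12% of all probes in Elbe against Danube, 1.31% in Rhine against Danube and 1.76% in Elbe against Rhine, where no member was separated.

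For hsp-12.1, the log2 ratios on Danube replicates 1 to 5 were -0.44, -0.89, -0.23, -0.90 and -0.23. On the Elbe arrays they were 0.63, 0.97, 0.40, -0.09 and 0.82, and on the Rhine arrays -0.53, -0.09, 0.72, -0.16 and -0.36. The lowest Elbe array was thus above the highest Danube array, while the Rhine arrays overlapped both. The Elbe mean exceeded the Danube mean by 1.08 ± 0.28 (SE, n = 5 arrays each), a 2.12-fold ratio with a 95% interval from 0.48 to 1.69 on the log2 scale. This difference had the 17th lowest p of 5347 probes, an unadjusted p of 0.0016 and a limma adjusted p of 0.477. The Rhine mean was 0.45 ± 0.28 above Danube (adjusted p = 0.49, limma), and Elbe was 0.63 ± 0.28 above Rhine (adjusted p = 0.434, limma).

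The order of the hsp-12.1 means was Elbe (0.55 ± 0.41, SD, n = 5), Rhine (-0.09 ± 0.48) and Danube (-0.54 ± 0.33). Measured against Danube 5 alone, within the later slide series, the Elbe mean was 0.77 higher and all 5 Elbe arrays lay above it; there is no replicate check on a single array. When the slide series was fitted as a block, the Elbe difference was 0.77 ± 0.50 with an unadjusted p of 0.145. Relative to the array median, the mean log2 Cy5 signal was 1.00 ± 0.47 (SD, n = 5) in Elbe, 1.00 ± 0.89 in Rhine and 0.36 ± 0.85 in Danube. The mean log2 Cy3 signal was 0.55 ± 0.65 in Elbe, 1.06 ± 0.58 in Rhine and 1.14 ± 0.72 in Danube. Mean Cy5 was thus alike in Elbe and Rhine. The reference channel was on average lower at this spot on the Elbe arrays, although the same pool was applied to every array. These shifts were of a size similar to the SDs.

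For hsp-12.6, a DAF-16 target, the Danube ratios were -0.56, -1.03, -0.77, -0.35 and -0.40. The Rhine ratios were 0.26, -0.12, -0.24, 0.56 and 0.55, all above the highest Danube array. The Elbe ratios of -1.31, 0.23, -0.31, -0.24 and -0.76 spread across both. The Rhine mean was 0.82 ± 0.29 above the Danube mean (1.77-fold; adjusted p = 0.338, limma) and Elbe was 0.68 ± 0.29 below Rhine on the log2 scale (a difference of -0.68; adjusted p = 0.424, limma). Elbe and Danube differed by 0.14 ± 0.29, with an interval from -0.48 to 0.76. In the authors' table of processed values, which does not divide by the reference, Elbe minus Rhine was -0.033 ± 0.53, Elbe minus Danube 0.73 ± 0.53 and Rhine minus Danube 0.76 ± 0.53. The median of all tested probes was itself 0.24 higher in Rhine than in Danube, which leaves 0.58 for hsp-12.6 relative to it.

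The hsp-12.6 spot was bright, with Cy5 signals of 1674 to 10420 on Danube arrays, 3615 to 12120 on Elbe arrays and 2139 to 28870 on Rhine arrays. Against Danube 5 alone, the Rhine mean was 0.60 higher and all 5 Rhine arrays lay above it. With a block for slide series the difference was 0.60 ± 0.52 (unadjusted p = 0.264, limma). Leaving out 1 array at a time kept the Rhine difference between 0.72 and 0.93.

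Its neighbour hsp-12.3 showed the same order between Rhine and Danube with more overlap. The Danube ratios were -0.62, 0.49, -0.55, 0.32 and -0.12, and the Elbe ratios -0.34, 0.42, 1.17, 0.59 and 0.16. On the Rhine arrays they were 1.47, 0.13, 0.38, 1.54 and 0.68, so that 3 Rhine arrays exceeded all Danube arrays. The Rhine mean was 0.94 ± 0.36 above Danube, a 1.92-fold ratio (unadjusted p = 0.0178 and adjusted p = 0.338, limma). Elbe was 0.50 ± 0.36 above Danube (adjusted p = 0.88, limma), and Elbe minus Rhine was -0.44 ± 0.36. In the authors' table the Rhine difference of hsp-12.3 was 0.04 ± 0.30, and its mean log2 Cy3 signal relative to the array median was -0.54 in Rhine against 0.40 in Danube.

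The weak probe of hsp-12.2 also had its highest mean on the Elbe arrays. Danube ratios were -0.66, -1.10, -0.79, 0.48 and -0.56, with 1 of the 5 spots above the lowest grade. Elbe ratios were 2.31, 0.49, -0.16, 0.55 and 0.63, with 3 such spots, and Rhine ratios were -0.84, -0.27, -1.76, 1.04 and -0.38, with 2. The Elbe and Danube ranges overlapped through Danube 4. Elbe was 1.29 ± 0.54 above Danube (adjusted p = 0.96, limma over all probes) and 1.21 ± 0.54 above Rhine (adjusted p = 0.775), while Rhine and Danube differed by 0.08 ± 0.54.

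The study's methods call a gene whose unadjusted p is under 0.05 and whose fold reaches 1.4 upwards or 0.7 downwards. By these thresholds, counted from the limma fit, the members past them were hsp-12.1 in Elbe against Danube, hsp-12.3 and hsp-12.6 in Rhine against Danube, and hsp-12.1 and hsp-12.6 in Elbe against Rhine. That is 1, 2 and 2 of 5 tested members, beside 6.28%, 12.8% and 10.5% of all tested probes. In the fit over all probes the counts were 2, 2 and 1 of 9, where hsp-12.2 was added in Elbe against Danube and Elbe against Rhine and hsp-12.1 and hsp-12.6 were no longer past the threshold in the last comparison. There the background was 4.24%, 6.75% and 6.3%. With so few members such shares cannot be set apart from the background.

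**Figure D2:**
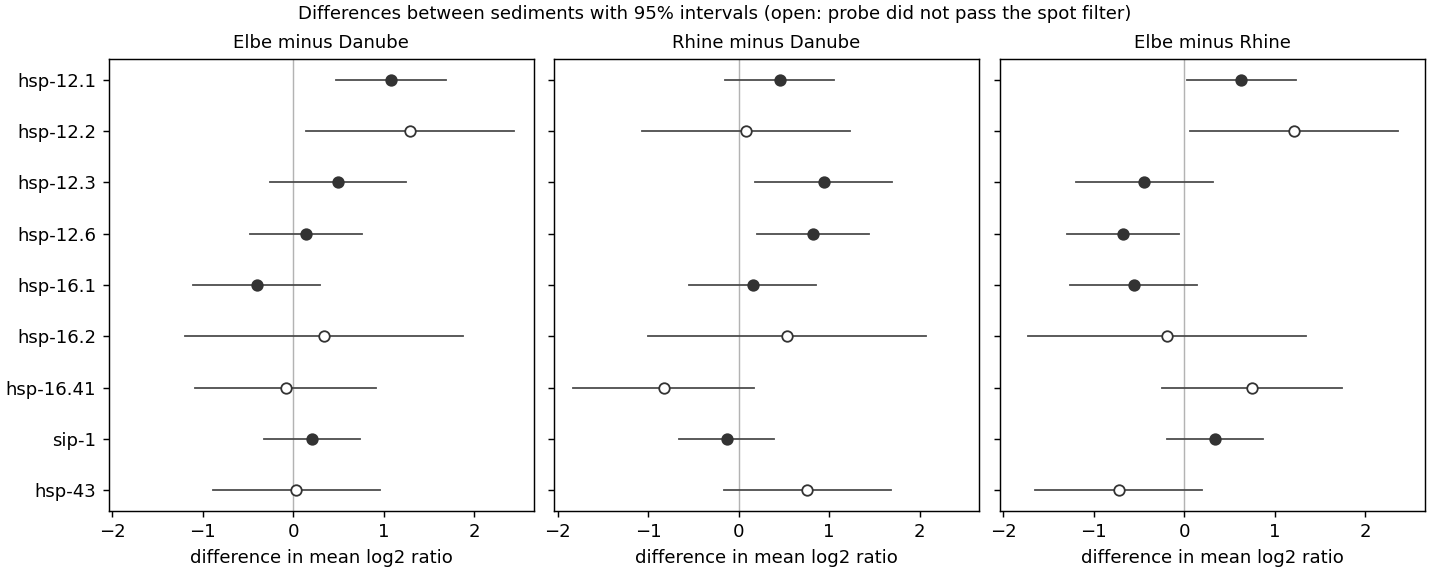
Differences in mean log2 ratio between sediments (horizontal axis) for the 9 measured genes, with 95% intervals from the limma fit. Filled points passed the spot filter; open points come from the fit over all probes. The interval of hsp-12.1 in Elbe minus Danube runs from 0.48 to 1.69, and those of hsp-16.2 are the widest.

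The heat-inducible hsp-16 genes showed no common pattern. For hsp-16.1 the Danube ratios were 0.61, -0.35, 1.12, 0.17 and -0.05, the Elbe ratios 0.05, 0.46, 0.02, -0.05 and -0.995, and the Rhine ratios -0.12, 0.56, 1.02, 0.32 and 0.48. The sediments overlapped throughout. Elbe minus Danube was -0.40 ± 0.33, Rhine minus Danube 0.15 ± 0.33 and Elbe minus Rhine -0.56 ± 0.33, with adjusted p-values of 0.88, 0.856 and 0.557 (limma). This probe had a pair of spots on each array, which did not agree closely: on Elbe 5 the spots read 0.40 and -2.39, the lower from a spot of the lowest grade. With such spots set to missing, Elbe minus Danube became 0.06.

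For hsp-16.2 the Elbe ratios were tight, at 0.84, 0.16, 0.46, 0.34 and 0.51, with all 5 spots above the lowest grade. The Danube ratios were -0.22, 1.11, -0.63, 0.69 and -0.34. The Rhine ratios were 4.1, -0.08, -0.60, -0.07 and -0.09, so the Rhine mean of 0.65 ± 1.94 (SD, n = 5) was set by Rhine 1. On that array the spot had the lowest grade, a Cy5 signal of 2878 and a Cy3 signal of 648.1, and its log2 ratio before normalization was 2.15. Rhine minus Danube was 0.53 ± 0.72 with Rhine 1 and -0.33 without it, and Elbe minus Rhine was -0.19 ± 0.72 with it and 0.67 without it (unadjusted p = 0.0965, limma). All 5 Elbe arrays lay above the mean of Danube, by 0.34 ± 0.72 on average (adjusted p = 0.978, limma). That SE uses the spread of all sediments and so includes Rhine 1. With only the Elbe and Danube arrays fitted, the difference was 0.34 ± 0.38 (adjusted p = 0.904, limma over all probes).

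Its neighbour hsp-16.41 differed from it. The Danube ratios were -0.10, -0.30, -0.10, -0.17 and 1.97, the Elbe ratios 0.11, -0.55, 0.45, -0.18 and 1.07, and the Rhine ratios -1.32, -0.70, -0.56, -0.32 and 0.05. A spot above the lowest grade was found on 1 Danube, 1 Elbe and 5 Rhine arrays. Rhine was lowest, with -0.83 ± 0.47 against Danube (adjusted p = 0.737, limma) and Elbe 0.75 ± 0.47 above Rhine (adjusted p = 0.796, limma). The Danube mean was raised by Danube 5, the only Danube array in the later slide series. Elbe minus Danube was -0.08 ± 0.47 with it and 0.35 without it, and Rhine minus Danube went from -0.83 to -0.40. With a block for slide series, which rests on that array, Rhine minus Danube was -2.54 ± 0.63 (adjusted p = 0.0945, limma over all probes).

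After subtracting each sediment's mean, the log2 ratios of the 9 genes were compared in all 36 pairs over the 15 arrays, where a shared array also shares its normalization and reference. No pair passed after adjustment over the 36 (permutation test with 100000 resamples, two-sided). The neighbours hsp-16.2 and hsp-16.41 had a Pearson r of -0.39 (permutation p = 0.132, adjusted p = 0.417) and a Spearman rho of -0.40 (permutation p = 0.14, adjusted p = 0.46). Without the 2 arrays farthest from the median of hsp-16.2, r was -0.12, and within the 11 arrays of the later slide series it was -0.40. For hsp-16.1 and hsp-16.2, r was -0.55 (permutation p = 0.0294, adjusted p = 0.308) and rho -0.56 (permutation p = 0.0327, adjusted p = 0.253), with -0.65 without 2 arrays and -0.49 within the later series. The other neighbours, hsp-12.3 and hsp-12.6, had an r of 0.49 (permutation p = 0.0632, adjusted p = 0.325) and a rho of 0.56 (permutation p = 0.0326, adjusted p = 0.253), with 0.43 without 2 arrays and 0.65 within the later series.

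Sip-1 was measured by a bright spot on all arrays. Its log2 ratios were -0.06, -0.70, 0.07, 0.34 and -0.36 in Danube, -0.02, -0.28, 0.43, -0.09 and 0.29 in Elbe, and 0.05, -0.26, -0.13, -0.69 and -0.34 in Rhine. The sediments overlapped, and the spread was the smallest among the members, with a pooled SD of 0.33. Elbe minus Danube was 0.21 ± 0.25, Rhine minus Danube -0.13 ± 0.25 and Elbe minus Rhine 0.34 ± 0.25, with adjusted p-values of 0.93, 0.831 and 0.63 (limma). The 95% interval for Elbe minus Danube ran from -0.32 to 0.73.

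The separate channels of sip-1 varied widely, and so did their ratio before normalization, from -1.60 on Danube 2 to 2.52 on Rhine 4 on the log2 scale. The Cy5 signals were 26730, 9322, 25560, 4091 and 42040 on the Danube arrays, 35740, 58700, 35730, 112300 and 53880 on the Elbe arrays, and 50460, 60050, 42520, 49670 and 14650 on the Rhine arrays. The Cy3 signals of the same spots were 16040, 28250, 14430, 3347 and 29170 in Danube, 19520, 22790, 23670, 42590 and 31650 in Elbe, and 21350, 25990, 14370, 8649 and 6820 in Rhine. The reference signal thus went from 3347 to 42590 at a single spot, and Danube 4, lowest in Cy5, was also lowest in Cy3, as Elbe 4 was highest in both.

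**Figure D3:**
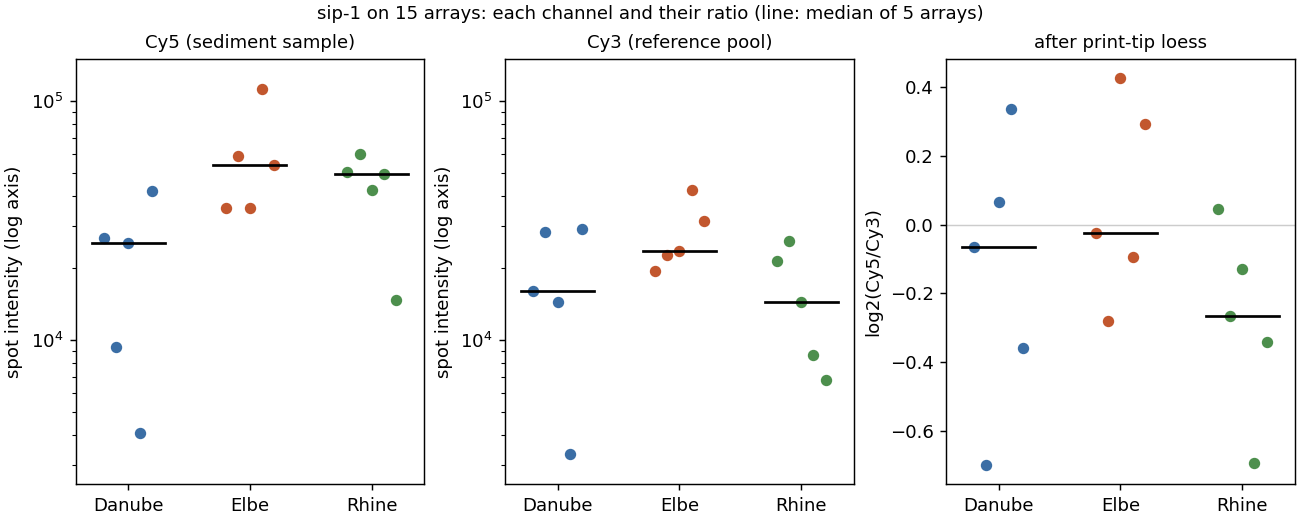
Sip-1 on each array: spot intensity in Cy5 and in Cy3 (both on log axes) and the log2 ratio after print-tip loess, with the median of 5 arrays as a line. Cy5 reaches from 4091 to 112300 and Cy3 from 3347 to 42590, and the log2 ratios, from -1.60 to 2.52 before normalization, lie between -0.70 and 0.43 after it.

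The authors' table of processed values matched the normalized Cy5 signal for all 9 members, with a correlation above 0.999 over the 15 arrays, and not the ratio of the channels. In that table sip-1 was 1.20 ± 0.49 higher on the log2 scale in Elbe than in Danube (unadjusted p = 0.0246, adjusted p = 0.808, limma over 18364 rows) and 1.04 ± 0.49 higher in Elbe than in Rhine (adjusted p = 0.696). Its values there, relative to the gene's median, were 0.775, 0.641, 0.947, 0.215 and 1.15 in Danube and 1.10, 1.18, 1.49, 2.31 and 1.68 in Elbe. All Elbe arrays but Elbe 1 lay above the highest Danube array. It was the only member past the methods' thresholds in that table, in both Elbe comparisons, whereas hsp-12.1 was not, with 0.53 ± 0.50 in Elbe against Danube (adjusted p = 0.875, limma). Of all 18364 rows, 1124 were past these thresholds in Elbe against Danube and 1308 in Elbe against Rhine. A single member among 9 cannot be set apart from that background. The paper lists sip-1 among the genes up-regulated after exposure to Elbe sediment. By the ratio to the reference, sip-1 was not past those thresholds in any comparison.

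**Figure D4:**
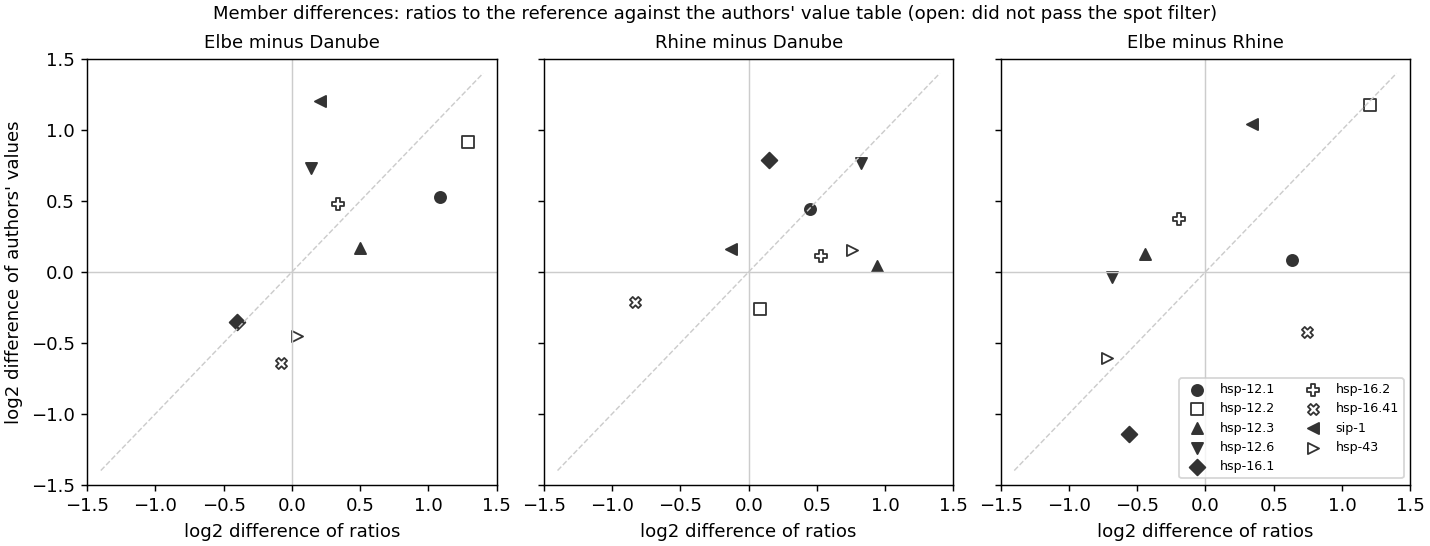
Differences between sediments for the 9 genes from the ratios to the reference (horizontal axis, log2) and from the authors' processed values (vertical axis, log2), with equality as the dashed line. In Elbe minus Danube, sip-1 lies at 0.21 and 1.20 and hsp-12.1 at 1.08 and 0.53; filled points passed the spot filter.

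Hsp-43 gave ratios of -0.17, 0.43, -1.49, -0.22 and -0.47 in Danube and -1.66, -0.06, 0.55, -0.48 and -0.11 in Elbe. Its Rhine ratios were tighter and all above 0, at 0.82, 0.02, 0.35, 0.12 and 0.56. Rhine minus Danube was 0.76 ± 0.43 (adjusted p = 0.737, limma over all probes) and Elbe minus Danube 0.03 ± 0.43. The spots were above the lowest grade on 3 Danube, 2 Elbe and 3 Rhine arrays.

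Over the 9 genes, 7 had a higher mean in Elbe and 7 in Rhine than in Danube, and 4 had a higher mean in Elbe than in Rhine. The share of all probes with a higher mean was not counted, so these counts have no background beside them. The median differences of the 9 genes were 0.21, 0.45 and -0.19, beside 0.03, 0.10 and -0.07 over all 19084 probes. Over the probes that passed the spot filter, as 5 of the 9 genes did, the medians were 0.08, 0.24 and -0.17. The 9 genes include members that did not pass that filter, so the like comparison is with all 19084 probes. There the Elbe against Rhine median of the 9 genes was -0.19 beside -0.07. This median of the 9 genes turned positive with median centring (0.20), with a single loess curve per array (0.11) and in the authors' table (0.09). The median of the 9 ratios within an array lay between -0.55 and 0.17 on Danube arrays, between -0.09 and 0.43 on Elbe arrays and between -0.13 and 0.12 on Rhine arrays. The ranges overlapped.

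The choice of normalization moved members with bright and with dim spots, but not all in the same direction or by the same amount. Centring each array on its median without loess gave 1.54 ± 0.49 for sip-1 in Rhine against Danube (adjusted p = 0.0888, limma) where print-tip loess gave -0.13, and it raised the median of all tested probes in that comparison from 0.24 to 0.80. For hsp-12.6 it gave 1.82 ± 0.55 (adjusted p = 0.0888) in place of 0.82, and for the dim hsp-16.1 probe -1.27 ± 0.47 (adjusted p = 0.0957) in place of 0.15. For hsp-12.1 the difference of Elbe from Danube ran from 0.53 in the authors' table to 1.24 with median centring. It stayed between 0.98 and 1.24 when any 1 array was left out.

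**Figure D5:**
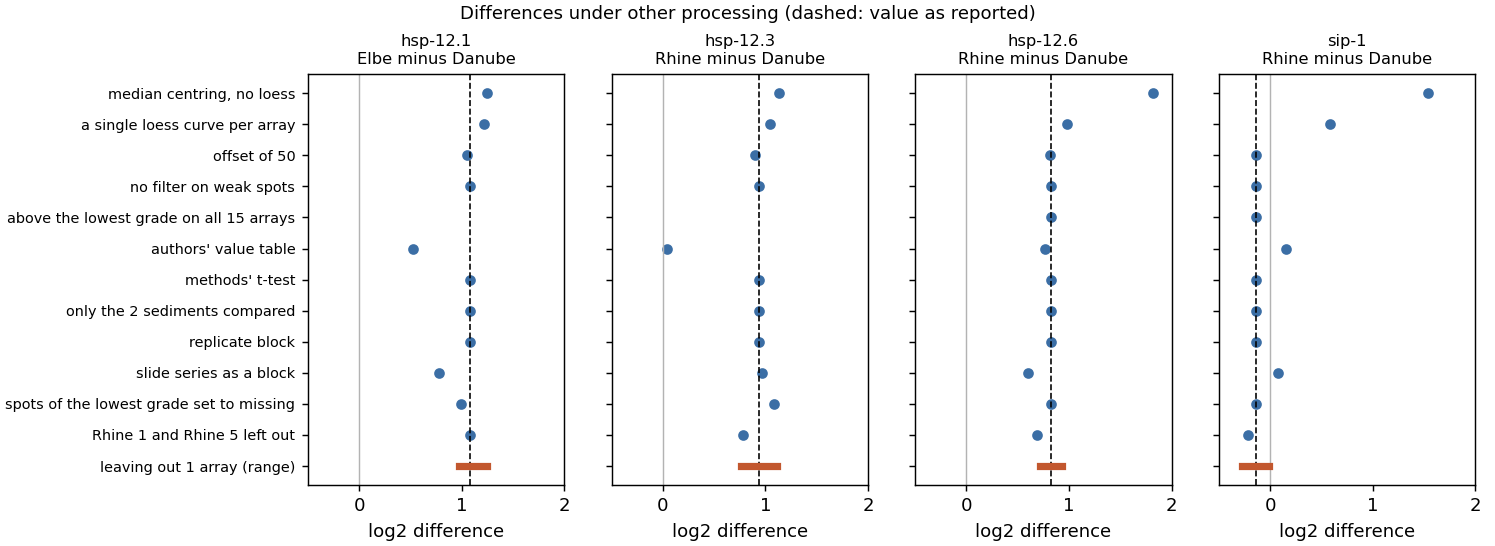
Log2 differences (horizontal axis) of hsp-12.1, hsp-12.3, hsp-12.6 and sip-1 under each other way of processing, with the reported value dashed and the range over leaving out 1 array as a bar. For sip-1 in Rhine minus Danube the value went from -0.13 to 1.54 with median centring; hsp-12.1 in Elbe minus Danube was 0.53 in the authors' table.

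Other genes with an alpha-crystallin domain gave no call. Of 8 listed, 7 had a probe and 3 passed the spot filter: hsp-16.49, ZK1128.7 and Y55F3BR.6. None of these was past the methods' thresholds in any comparison. For hsp-16.49, the neighbour and near-identical relative of hsp-16.48, the differences were 0.24 ± 0.46 in Elbe against Danube, 0.07 ± 0.46 in Rhine against Danube and 0.16 ± 0.46 in Elbe against Rhine. Hsp-25, hsp-17, hsp-16.20 and hsp-16.21 did not pass the filter, and their values come from the fit over all probes. Hsp-25 was 1.21 ± 0.86 above Danube in Elbe and also in Rhine (adjusted p = 0.96 and 0.755, limma). Hsp-17 was at -0.18 ± 0.66 in Elbe against Danube, 1.10 ± 0.66 in Rhine against Danube and -1.28 ± 0.66 in Elbe against Rhine. Hsp-16.20 and hsp-16.21 lay between -0.14 and 0.02 in all comparisons.

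Of 26 listed genes of the wider heat shock response, 25 had a probe, 15 were tested and none was called. By the methods' thresholds 1 was higher in Elbe than in Danube and 3 were higher in Rhine than in Danube, none was lower, and none passed them between Elbe and Rhine. Over all tested probes these thresholds passed 6.28%, 12.8% and 10.5%, with 232 higher and 104 lower in Elbe against Danube, 608 higher and 77 lower in Rhine against Danube, and 133 higher and 429 lower in Elbe against Rhine. The gene past them in Elbe against Danube was hip-1, which encodes a partner of the Hsp70 chaperones, at 0.63 ± 0.25. In Rhine against Danube they were hip-1 at 0.72 ± 0.25 and the genes of the J-domain co-chaperones dnj-12 at 1.06 ± 0.44 and dnj-19 at 0.84 ± 0.37. The heat-inducible hsp-70 had a difference of 0.67 ± 0.32 in Elbe against Danube (unadjusted p = 0.0501, adjusted p = 0.79, limma). The median of the 15 genes was 0.28 in Elbe against Danube, 0.41 in Rhine against Danube and -0.09 in Elbe against Rhine, beside medians of 0.08, 0.24 and -0.17 over all tested probes.

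Markers of stage and tissue were set beside these values, since hsp-12 genes and sip-1 differ in level between stages and tissues. No marker was called in any comparison. Of the yolk genes 5 of 6 were tested, with medians of -0.016, 0.27 and -0.47 in the 3 comparisons. In Rhine against Danube, vit-3 was at 1.36 ± 0.50 (adjusted p = 0.338, limma), vit-2 at 0.68 ± 0.32 and vit-6 at -0.27 ± 0.25. In Elbe against Danube, vit-2 was at 0.67 ± 0.32, vit-3 at 0.73 ± 0.50 and vit-1 at -0.52 ± 0.31. The 5 tested oocyte genes of 8 had medians of 0.26, 0.27 and -0.05 in the 3 comparisons, and all 5 muscle and intestine genes were tested, with medians of 0.10, 1.04 and -0.12. Among the latter, unc-15, which encodes a paramyosin of muscle, was at 1.04 ± 0.37 in Rhine against Danube (adjusted p = 0.338, limma). There the muscle gene myo-3 was at 1.53 ± 0.78, and elt-2, which encodes a transcription factor of the intestine, at -0.62 ± 0.38 (adjusted p = 0.482, limma). In Elbe against Danube, the intestine gene ges-1 was at 1.44 ± 0.86, myo-3 at 1.41 ± 0.78 and unc-15 at 0.10 ± 0.37. The within-array median of the oocyte genes ranged from -0.88 to 0.00 in Danube, from -0.39 to 0.14 in Elbe and from -0.07 to 0.00 in Rhine. The part of stage, tissue and slide series in the values of the small heat shock proteins was not tested.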

How the data were processed

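The authors deposited, for each array, spot intensities of both channels on a linear scale, without normalization or a background value, with a confidence score from 0 to 1 per spot, as BlueFuse 3.4 wrote them per the file headers. Scores up to 0.05 form the lowest grade; manual exclusion had removed 0 spots. A further deposited table has 18653 rows, each a linear ratio to the median of that gene, which the authors obtained by print-tip Lowess followed by median polishing. Column medians were 0.998 to 1. Its rows were named through their match to the Cy5 signal; 18364 rows had different values.

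Within each array, log2(Cy5/Cy3) was normalized in limma 3.58.1 (R 4.3.3) by a loess curve for each of 48 print-tip blocks, with 2370 control spots at weight 0, and the spots of a probe were averaged. Of 19084 probes, 5347 passed the filter. Sediments were compared by lmFit and eBayes over all 15 arrays, tested on simulated data, with Benjamini-Hochberg adjustment over all probes at 0.05. The number of arrays limits the precision. Other normalizations, filters, tests, blocks and samples were tried. All 9 measured genes are named, and of the other lists up to 3 genes per comparison with the lowest p. The members and lists were chosen with earlier results of these data known. RefSeq symbols matched 18089 probes. Protein and promoter sequences were not used here.

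The replicate numbers were checked as pairs. Correlations of deviations from the sediment means, between arrays of the same number, were -0.04 to 0.13, so the numbers were not treated as pairs.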

Additional observations from a re-analysis of the deposited data

Results flagged for a closer look

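In groups of 5 arrays the gap between a member's highest or lowest value and the nearest other value was divided by the range of the group (Dixon's test, critical value 0.71). Of 27 groups examined, 2 had a value that stood apart, and chance gives about 1 in 20. The hsp-16.2 ratio on Rhine 1 was 4.1, against -0.60 to -0.07 on the other Rhine arrays, and its spot had a confidence of 0.04. The hsp-16.41 ratio on Danube 5 was 1.97, against -0.30 to -0.10 on the other Danube arrays, and its spot had a confidence of 0.05. Both spots had the lowest grade. Without Rhine 1 the hsp-16.2 difference of Rhine from Danube was -0.33, and without Danube 5 the hsp-16.41 difference of Elbe from Danube was 0.35.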

How the results depend on the processing

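No small heat shock protein probe was called in any comparison under any of the 12 alternatives or when any 1 of the 15 arrays was left out; the lowest adjusted p (limma) among these was 0.0888, with median centring in Rhine against Danube. Of 291 member differences under the alternatives 26 changed direction, and of 405 with 1 array left out 13 did; none of them was called. The causes were not tested. The alternatives in which weak spots were set to missing or Rhine 1 and Rhine 5 were left out were chosen after seeing the data.

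With median centring and no loess, the median difference of the members was 0.71 in Elbe against Danube, 0.68 in Rhine against Danube and 0.20 in Elbe against Rhine. There hsp-43 was -0.24 in Elbe against Danube, hsp-16.1 -1.27 and sip-1 1.54 in Rhine against Danube, and hsp-16.1 0.62, hsp-16.2 0.20 and sip-1 -0.77 in Elbe against Rhine. With a single loess curve per array the medians were 0.53 in Elbe against Danube and 0.11 in Elbe against Rhine. There hsp-16.1 was 0.075 and hsp-43 -0.36 in Elbe against Danube, hsp-16.1 -0.036 and sip-1 0.58 in Rhine against Danube, and hsp-16.1 0.11 and hsp-16.2 0.40 in Elbe against Rhine. In the authors' value table the medians were 0.48, 0.15 and 0.087; hsp-43 was -0.45 in Elbe against Danube, hsp-12.2 -0.26 and sip-1 0.16 in Rhine against Danube, and hsp-12.3 0.13, hsp-16.2 0.37 and hsp-16.41 -0.43 in Elbe against Rhine.

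With the slide series as a block, which rests on Danube 5, the Elbe against Danube median was 0.42, hsp-12.6 was -0.077 in that comparison and sip-1 0.082 in Rhine against Danube. With weak spots set to missing the medians were 0.45 in Elbe against Danube and 0.34 in Elbe against Rhine, hsp-16.1 was 0.057 and hsp-16.41 1.23 in Elbe against Danube, and hsp-16.2 was -0.39 in Rhine against Danube and 0.54 in Elbe against Rhine. Without Rhine 1 and Rhine 5 the Elbe against Rhine median was 0.39, and hsp-16.2 was -0.37 in Rhine against Danube and 0.71 in Elbe against Rhine.

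Leaving out 1 array at a time, the Elbe against Rhine median ran from -0.41 (without Rhine 3) to 0.42 (without Rhine 1). In Elbe against Danube, hsp-43 ran from -0.24 to 0.36, hsp-16.41 from -0.30 to 0.35 and hsp-12.6 from -0.035 to 0.35. In Rhine against Danube, hsp-12.2 ran from -0.29 to 0.41, hsp-16.1 from -0.011 to 0.36 and hsp-16.2 from -0.33 to 0.84, and in Elbe against Rhine hsp-16.2 ran from -0.51 to 0.67.

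The arrays shared only their replicate numbers, and 7 of 15 correlated best with their own number. With the replicate number as a block, 0 members were called in each comparison, with medians of 0.21, 0.45 and -0.19 as without it, and it changed no call.

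Over all tested probes, the methods' thresholds passed 336, 685 and 562 probes in Elbe against Danube, Rhine against Danube and Elbe against Rhine. The slide series block gave 95 and 118 in the first pair of comparisons. In Rhine against Danube, median centring gave 1811 and the methods' t-test 380. Without the spot filter the counts were 809, 1288 and 1203, with spots above the lowest grade on all 15 arrays 183, 391 and 307, and the authors' values gave 1124, 1329 and 1308. Without Rhine 1 and Rhine 5, Rhine against Danube had 454 and Elbe against Rhine 356. Adjusted calls of 1, 0 and 0 became 5, 6 and 14 among the 2213 probes above the lowest grade on all arrays, where 2 members were tested, and reached at most 4 under the other alternatives and 5 with 1 array left out (Elbe against Rhine without Danube 2).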
